A study of Solanum lycopersicum with 8 samples.

Results

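The ripe fruit of the tomato accession TM was compared with the ripe fruit of 3 other accessions, AV, SK and RJ. The comparison sets 1 array of TM fruit against the mean of 3 arrays, 1 of each other accession, out of 8 arrays in the study. The other 4 arrays hold mature leaf of the same accessions. All samples are Solanum lycopersicum, with whole fruit taken at the red ripe stage and whole leaf taken when mature, and no treatment is named. Per the labels, TM was collected in Kashmir, AV was obtained in Hyderabad, SK came from Chatha and RJ from Rajouri, and the accessions differ in how they mature and in the carotenoids of their ripe fruit. Whether the RNA of an array came from 1 fruit, 1 plant or a pool is not stated. With 1 array per accession no difference has a replicate check, so values are described and no test was run. The spread over AV, SK and RJ fruit is a spread between accessions.

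Tomato is a climacteric fruit, in which a burst of the gas ethylene accompanies ripening. The transcription factors RIN, NOR and FUL1 act with ethylene to turn on genes for carotenoid synthesis, aroma and the breakdown of the pectin-rich cell wall. Softening involves polygalacturonase, pectin methylesterase and expansin, enzymes and proteins that cut or loosen wall polymers.

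Values are log2 intensities of single-colour arrays, with 0 set at each array's 75th percentile of the 3085 probes seen on all 8 arrays, where seen means well above background by the scanner's flag. A level of 0 is therefore a bright probe, and levels are compared between arrays and never between genes. Of 33750 non-control probes, 18.9% to 19.9% were seen on a fruit array, the highest share being that of TM fruit, and 5117 were seen on all 4. The TM fruit array was dimmer before scaling, with a median processed signal of 61.7 units, against 92.3 units on AV, 102 units on SK and 101 units on RJ fruit. Its part in the differences below was not tested. The arrays of TM and AV fruit shared a slide and those of SK and RJ fruit shared another, so TM minus AV is the one contrast of TM fruit within a slide. The leaf arrays were all on 1 further slide, so every fruit minus leaf difference crosses slides. Of the 5117 probes, 800 could be tied to a gene, which gave 277 genes with a name and 65 with a locus number alone.

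The labelled tissue was checked against marker genes. Of 11 ripe fruit markers on the array, 10 were seen on the TM fruit array and 11 on each other fruit array. The missing gene was PG2, the fruit polygalacturonase. The log2 of the summed level of these markers was 5.08 in TM fruit, against 6.35 in AV, 4.93 in SK and 5.33 in RJ fruit, and it lay between -1.68 and -0.72 in the 4 leaves. Of 5 green tissue markers, 2 were seen on each fruit array, with summed levels, again on the log2 scale, of -1.98 in TM fruit, against -1.94 in AV, -1.21 in SK and -1.77 in RJ fruit. CAB4, PsbQ and SBPASE, which serve photosynthesis, were not seen on any of the 4 fruit arrays. None of 4 glandular trichome markers was seen on any array. Of 3 seed markers LEA14 alone was seen, at -0.17 in TM fruit, against -0.04 in AV, -0.09 in SK and -0.53 in RJ fruit. The TM array thus carried 10 of the 11 markers of ripe fruit. The trichome markers were unseen in the leaves as well, so they cannot tell whether a fruit sample held trichomes.

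TM fruit differed from the mean of the other fruit by at least 2-fold at 599 of 5117 probes, which is 11.7%. Of these, 253 probes (4.94%) were higher and 346 (6.76%) were lower in TM fruit. The median difference over the 5117 probes was -0.09, with an SD of 0.66 over probes. The split into higher and lower depends on the scaling. The share of higher probes among those 2-fold apart was 42.2%, against 62.3% when arrays were scaled to their medians, 64.1% in the authors' deposited values, 18.5% when scaled to spike-in probes and 55.2% when the differences were centred on their median. Those scalings moved the median over probes by 0.15, 0.17 and -0.20 for the first 3 of them. Gene list medians as close to 0 as these shifts have no settled direction.

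The same description for the other arrays gave 365 probes higher and 195 lower in AV fruit, 120 higher and 152 lower in SK fruit, and 32 higher and 45 lower in RJ fruit. TM and AV fruit thus stood furthest from the rest, and RJ fruit the least far. These 4 sets share their arrays, and the 4 differences of a probe sum to 0 by construction. Against single accessions, TM fruit had 482 probes higher and 744 lower than AV fruit, 392 higher and 442 lower than SK fruit, and 83 higher and 161 lower than RJ fruit. Across probes, TM fruit correlated at r = 0.826 with AV, 0.878 with SK and 0.945 with RJ fruit. Pairs of the other 3 fruits correlated at 0.899 to 0.937. These are correlations across probes, which share the arrays and are no replicates.

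**Figure D1:**
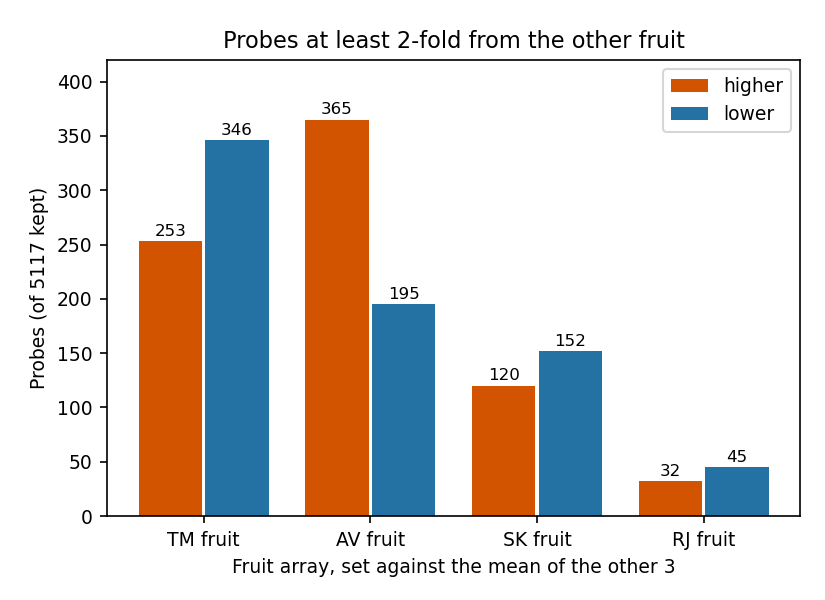
Number of probes, of 5117 well above background on all 4 fruit arrays, at least 2-fold higher (orange) or lower (blue) on each fruit array than on the mean of the other 3. TM fruit had 253 higher and 346 lower, AV fruit 365 and 195, SK fruit 120 and 152, and RJ fruit 32 and 45.

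Over all 5117 probes TM fruit was above the highest of the other 3 fruits at 1407 (27.5%) and below the lowest at 1964 (38.4%). A 2-fold difference from their mean nearly fixes TM fruit outside that range, so nothing is read from its place among the 2-fold probes. The commonest order of the 4 fruits over all 5117 probes was TM, RJ, SK and AV from low to high, at 742 probes (14.5%), followed by AV, SK, RJ and TM at 501 (9.79%). In these 2 orders RJ fruit lay nearest to TM fruit and AV fruit furthest away. The first order was also held by 176 of the 346 lower probes, and the second by 132 of the 253 higher probes, where the choice of probes places TM at the end.

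**Figure D2:**
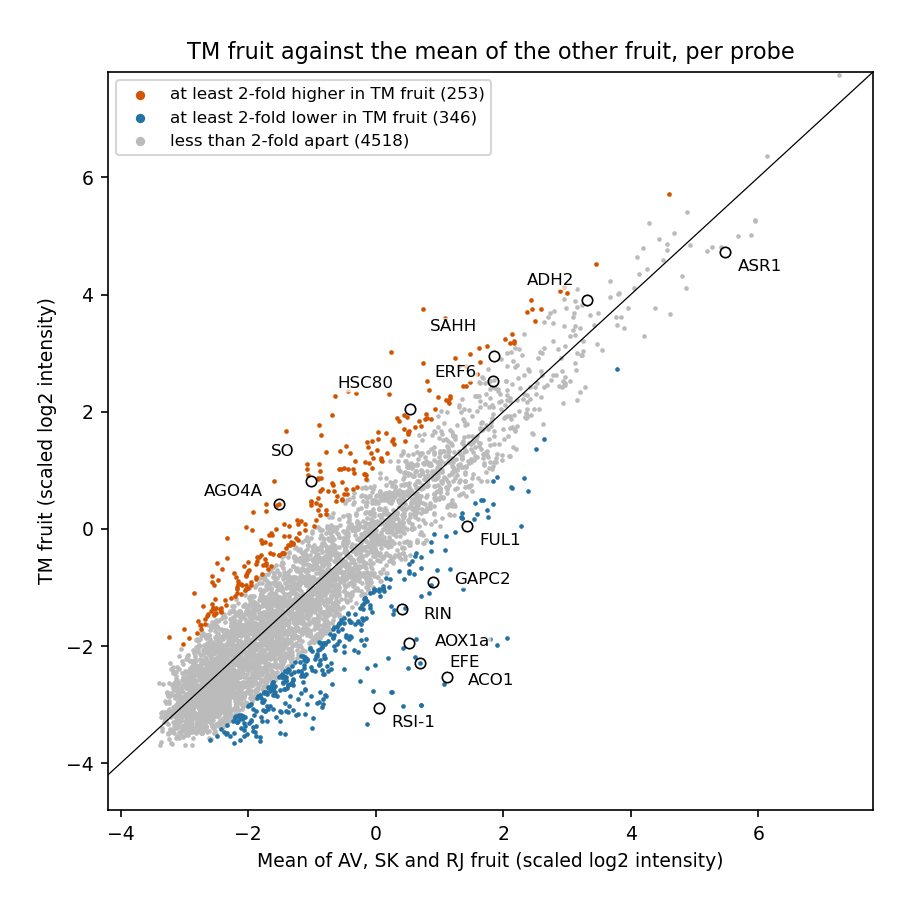
Each point is 1 of 5117 probes, with the mean of AV, SK and RJ fruit on the horizontal axis and TM fruit on the vertical axis, both as scaled log2 intensity. The line marks equal values, open circles mark the mean over probes of the genes named beside them, and orange and blue mark the 253 higher and 346 lower probes. ACO1, EFE and RSI-1 lay furthest below the line among the labelled genes and AGO4A, SO and HSC80 furthest above it.

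The leaves of the same accessions were set beside these probes. Of the 346 probes lower in TM fruit, 211 were seen on all 4 leaf arrays, and their median TM minus other leaf difference was 0.13. Of the 253 higher probes, 150 were seen on all leaf arrays, with a median of -0.28. The median over all 3085 kept probes seen in the leaves was 0.01. Of the leaf comparisons, 1 of the 211 lower probes and 3 of the 150 higher probes were 2-fold apart in the same direction between TM leaf and the other leaves. In the opposite direction, 7 of the 211 lower probes (3.32%) and 3 of the 150 higher probes (2%) were 2-fold apart. Over the 3085 probes 0.357% were 2-fold lower and 3.27% were 2-fold higher in TM leaf. The probes lower in TM fruit stood close to these shares. Of the probes higher in TM fruit, 2% were 2-fold lower in TM leaf, above the 0.357% of all, but these were 3 probes.

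The cell wall genes held the largest difference between TM fruit and the other fruits. Of 27 wall genes on the array, 4 were well above background on the other 3 fruit arrays and not on TM fruit. For such genes the fold is a lower bound, the mean of the other fruits against the lowest signal well above background on the TM array. Over all probes, 289 of 5407 seen on the other 3 fruit arrays (5.34%) were not seen on TM fruit, and 137 of the 5407 (2.53%) had a bound of at least 2-fold. For comparison, 325 probes were missing in this way on AV fruit, 145 on SK fruit and 87 on RJ fruit. In whole-fruit RNA, fewer cells of a kind and less RNA per cell cannot be told apart.

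PG2, the polygalacturonase that cuts demethylated pectin in ripe fruit, had a level of -5.88 in TM fruit, against 4.18 in AV, 0.90 in SK and 2.36 in RJ fruit. It was at least 72.1-fold lower in TM fruit than the mean of the others, and at least 40.0-fold lower with AV fruit left out. Its 6 probes read between -5.96 and -5.67 on the TM array, where 153 true negative control spots averaged -5.81 and reached at most -5.48. The TM signal of this gene was thus not distinguishable from that of empty probes. In the leaves PG2 was also at background, at -5.99 in TM leaf and -5.74 to -5.39 in the other leaves. All 6 probes were seen on the AV, SK and RJ fruit arrays.

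PE1 and PME2.1 encode pectin methylesterases, which remove methyl groups from pectin. PE1 had a level of -5.82 in TM fruit, against 0.76 in AV, -0.56 in SK and -0.99 in RJ fruit, over 7 of its 11 probes, and was lower in TM fruit by at least 3.43 on the log2 scale. None of the 11 probes was seen on TM fruit, while 10 were seen on AV, 8 on SK and 7 on RJ fruit. PME2.1 had a level of -5.91 in TM fruit, against -0.42 in AV, -0.65 in SK and -1.49 in RJ fruit, over 3 of its 4 probes, and was at least 7.14-fold lower. Genes of this kind were chosen as not seen on TM fruit, so nothing is read from TM fruit being lowest. PE1 and PME2.1 were both at background in the leaves.

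Man4, an endo-mannanase of fruit, had a level of -5.95 in TM fruit, against 3.07 in AV, -1.84 in SK and -3.47 in RJ fruit. It was at least 7.69-fold lower in TM fruit. This rests on AV fruit, since without it the bound was 2.05-fold, and on 1 of 5 probes, because SK and RJ fruit showed that probe alone. AV fruit showed all 5 and TM fruit none.

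The other wall genes did not share this pattern. The 9 wall genes seen on all 4 fruit arrays had a median difference of 0.12, against -0.09 over the 277 named genes. None was 2-fold apart, while 12 named genes (4.33%) were 2-fold higher and 26 (9.39%) were 2-fold lower. TM fruit was above the range of the other fruits for 2 wall genes and below it for 2, against 66 (23.8%) and 105 (37.9%) of the named genes. Cel2, an endoglucanase, had a level of 1.64 in TM fruit, against 1.49 in AV, 0.13 in SK and 0.36 in RJ fruit, a difference of 0.98. EXP1, the expansin of ripening fruit, had a level of 0.19 in TM fruit, against -0.23 in AV, -0.23 in SK and -0.68 in RJ fruit, a difference of 0.57. Both lay above the range of the other fruits. XTH5, a xyloglucan-modifying enzyme, was at -0.55 in TM fruit, against 0.94 in AV, -0.48 in SK and 0.17 in RJ fruit. TBG3, a beta-galactosidase, differed by -0.40, tXET-B1 by 0.21 and Cel3 by 0.18.

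**Figure D3:**
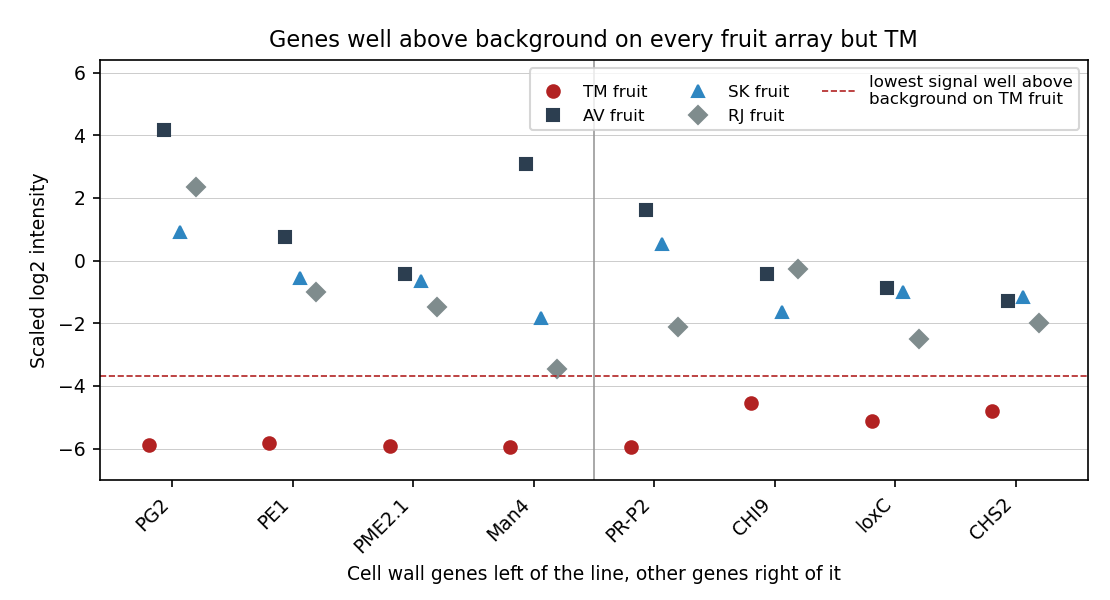
Scaled log2 intensity on the 4 fruit arrays of 8 genes well above background on AV, SK and RJ fruit and not on TM fruit, averaged over the probes of each gene seen on those 3 arrays. The dashed line is the lowest signal well above background on the TM array, at -3.69; the TM points lie between -5.95 and -4.55, below it, and PG2 reaches 4.18 in AV fruit.

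Ethylene synthesis runs from S-adenosylmethionine through ACC synthase to ACC oxidase. Of 10 genes of this list on the array, 7 were seen on all 4 fruit arrays. None was 2-fold higher in TM fruit and 2 were 2-fold lower, with a list median of -0.64. Among named genes 4.33% were 2-fold higher and 9.39% were 2-fold lower. TM fruit was above the range of the other fruits for 1 of the 7 and below it for 3, which is near the 23.8% and 37.9% of named genes. The 2 lower genes carry out the last step.

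ACO1, an ACC oxidase, had a level of -2.52 in TM fruit, against 2.25 in AV, 0.99 in SK and 0.11 in RJ fruit, a 12.5-fold lower level. Each of its 8 probes was lower in TM fruit, by differences of -3.91 to -3.05. The mean difference of -3.64 stood beside an SD of 1.08 over the other accessions. The 4 fruits were ordered TM, RJ, SK and AV, with RJ the nearest to TM. In TM the fruit was lower than the leaf by 0.81 on the log2 scale, whereas fruit minus leaf was 4.12 in AV and 1.45 in RJ. In SK leaf 1 of the 8 probes was seen, so that no exact difference is given for SK. EFE, a gene for the ethylene-forming enzyme closely related to ACO1, had a level of -2.29 in TM fruit, against 1.83 in AV, 0.49 in SK and -0.24 in RJ fruit. This value rests on 1 of 2 probes, and cross-hybridisation with ACO1 transcripts was not tested.

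The ACC synthases differed less. ACS2 had a level of -1.37 in TM fruit, against 0.47 in AV, -1.81 in SK and -0.82 in RJ fruit. ACS4 had a level of -2.26 in TM fruit, against -0.75 in AV, -2.47 in SK and -1.1 in RJ fruit. Both TM values lay inside the range of the other fruits, above SK. SAM1, an S-adenosylmethionine synthetase, was highest in TM fruit at 0.85, against -0.41 in AV, -0.64 in SK and 0.65 in RJ fruit, and differed from their mean by 0.98 over 9 probes. ACO4 differed by -0.53 and E8 by -0.09. The direction of E8 turned under some processing alternatives.

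Among 12 genes of ethylene perception and response seen in fruit, of 22 on the array, 1 was 2-fold higher in TM fruit and none was 2-fold lower, with a median of 0.04. TM fruit was above the range for 5 of them and below it for 4, beside the same shares of named genes, 23.8% above and 37.9% below. Among named genes 4.33% were 2-fold higher and 9.39% were 2-fold lower. EIL1, a transcription factor that acts downstream of the receptors, had a level of -0.77 in TM fruit, against -1.87 in AV, -1.87 in SK and -1.73 in RJ fruit. Its difference of 1.05 stood beside an SD of 0.08 over the other accessions. EIL1 stayed 2-fold higher under 14 of 17 processing alternatives. EIL3, of the same family, was at 0.56 in TM fruit, against -0.45 in AV, 0.15 in SK and 0.03 in RJ fruit. EBF1, an F-box protein that marks EIN3-like factors for breakdown, was at 1.60 in TM fruit, against 0.73 in AV, 0.51 in SK and 1.41 in RJ fruit. These 3 genes lay above the range of the other fruits.

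The receptor gene ETR4 was lowest in TM fruit, at -1.60, against -0.53 in AV, -0.88 in SK and -0.67 in RJ fruit. The receptor gene listed as ETR3 among the synonyms of LOC544279, and also known as Never-ripe, differed by 0.04, inside the range. EIN2, which passes the ethylene signal on, differed by 0.00, and EIL4 by 0.11. The ERF transcription factors went both ways, with differences of 0.68 for ERF6, 0.04 for ERF2, -0.34 for ERF3, -0.45 for JERF1 and -0.79 for JERF3. ERF6 had a level of 2.52 in TM fruit, against 1.39 in AV, 2.04 in SK and 2.09 in RJ fruit, and is also counted among the ripening regulators. The group showed no shared direction.

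**Figure D4:**
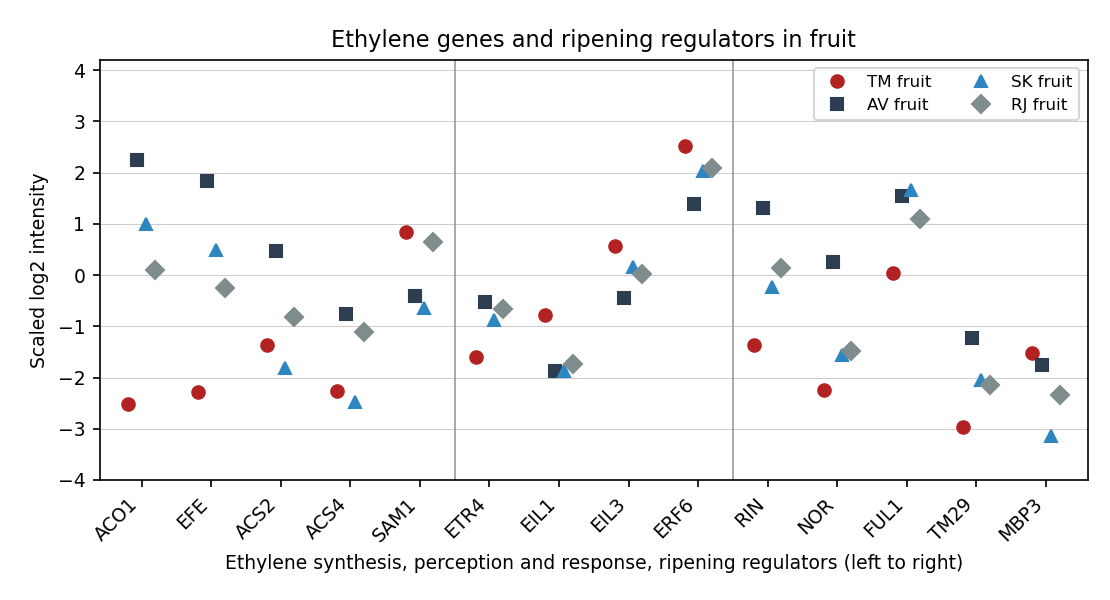
Scaled log2 intensity on the 4 fruit arrays for genes of ethylene synthesis (left), ethylene perception and response (middle) and ripening regulation (right), with 1 point per array averaged over the probes of a gene. TM fruit lay lowest for ACO1, EFE, ETR4, RIN, NOR, FUL1 and TM29, and highest for SAM1, EIL1, EIL3, ERF6 and MBP3.

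Of 13 ripening regulators on the array, 9 were seen on all 4 fruit arrays, with a median difference of -0.70. None was 2-fold higher and 4 were 2-fold lower in TM fruit, and TM fruit was below the range of the others for 6 and above it for 2. Among the 277 named genes 9.39% were 2-fold lower and 37.9% were below the range. The MADS-box gene RIN had a level of -1.37 in TM fruit, against 1.32 in AV, -0.22 in SK and 0.15 in RJ fruit, a 3.44-fold lower level. Its 8 probes differed by -1.85 to -1.66. The MADS-box gene FUL1 had a level of 0.04 in TM fruit, against 1.55 in AV, 1.66 in SK and 1.1 in RJ fruit, with 5 probes at -1.43 to -1.35. A 2-fold lower level nearly fixes TM fruit below the range, so nothing is read from that for these 2 genes. The probes of each of the 2 genes gave nearly the same difference.

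NOR, a NAC transcription factor, had a level of -2.25 in TM fruit, against 0.26 in AV, -1.56 in SK and -1.48 in RJ fruit. Its difference of -1.32 became -0.72 without AV fruit. TM29, a MADS-box gene, had a level of -2.97 in TM fruit, against -1.22 in AV, -2.06 in SK and -2.14 in RJ fruit, a difference of -1.16, which became -0.87 without AV fruit. LOC543885, listed as TM5 and also a MADS-box gene, differed by -0.70, and AP2a, a repressor of ripening, by -0.39. MBP3, a MADS-box gene, went the other way, with -1.53 in TM fruit, against -1.76 in AV, -3.15 in SK and -2.34 in RJ fruit. The NAC gene JA2 was inside the range, at a difference of 0.15. RIN, NOR, FUL1 and TM29 were seen in TM fruit at a lower level than elsewhere, in contrast to PG2, which was not seen.

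The carotenoid list had 9 of 19 genes seen on all 4 fruit arrays, with a median of -0.21, 1 gene 2-fold lower and none 2-fold higher. TM fruit was below the range of the other fruits for 4 of the 9 and above it for 1. These counts are near the shares of all named genes, 9.39% 2-fold lower, 37.9% below the range and 23.8% above it. DXS, the first enzyme of the plastid isoprenoid pathway, had a level of -1.03 in TM fruit, against 0.17 in AV, 0.39 in SK and 0.06 in RJ fruit, over 6 probes at -1.38 to -1.1. The difference of -1.24 stood beside an SD of 0.17 over the other accessions. Fruit minus leaf for DXS was -0.63 in TM, against 0.41 to 1.08 in the other accessions. HDR, the last enzyme of the same pathway, was slightly higher in TM fruit, at -1.02, against -1.42 in AV, -1.39 in SK and -1.31 in RJ fruit.

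Psy1, the phytoene synthase of fruit and the entry to carotenoids, had a level of 0.96 in TM fruit, against 2.17 in AV, 1.38 in SK and 1.55 in RJ fruit. Its 13 probes differed by -1.06 to -0.57, all lower, with a mean of -0.74. GGPS2, which makes the precursor of phytoene, differed by -0.58 and was nearly equal in TM fruit (-2.04) and SK fruit (-2.03). The desaturases PDS and ZDS, which act after phytoene, differed by 0.06 and -0.12. The cleavage enzymes CCD1B and NCED1 differed by -0.21 and -0.45, and ChrC, a chromoplast lipid-associated protein, by -0.21. PDS, ZDS, NCED1 and ChrC lay inside the range of the other fruits, and their direction turned under some alternatives.

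Lipoxygenases and the enzymes after them make volatile aldehydes and alcohols from fatty acids. Of 11 aroma genes on the array, 6 were seen on all 4 fruit arrays, with a median of -0.80. Of these, 2 were 2-fold lower and none was 2-fold higher, and TM fruit was below the range for 5 and above it for 1, beside 9.39% of named genes 2-fold lower and 37.9% below the range. LOX1.1, a lipoxygenase, had a level of -3.5 in TM fruit, against -0.54 in AV, -2.60 in SK and -2.91 in RJ fruit, and its difference of -1.48 became -0.74 without AV fruit. LOXB, another lipoxygenase, was at -0.50 in TM fruit, against 0.34 in AV, 0.48 in SK and 0.45 in RJ fruit, over 6 probes that all were lower. The gene AAT was at -0.12 in TM fruit, against 1.5 in AV, 1.41 in SK and 0.97 in RJ fruit. These 3 lay below the other fruits.

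Another lipoxygenase, loxC, which serves the making of fruit volatiles, was not seen in TM fruit. Its level there was -5.12, against -0.89 in AV, -0.99 in SK and -2.50 in RJ fruit, at least 4.69-fold lower over 1 of 3 probes. HPL, which splits lipoxygenase products, differed by -0.68 and was lower in TM fruit than in TM leaf by 0.39 on the log2 scale, while fruit minus leaf was 0.24 to 1.21 in the other accessions. ADH2, an alcohol dehydrogenase of ripe fruit, was the exception at 3.91 in TM fruit, against 3.45 in AV, 3.26 in SK and 3.23 in RJ fruit, over 8 probes that all were higher.

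**Figure D5:**
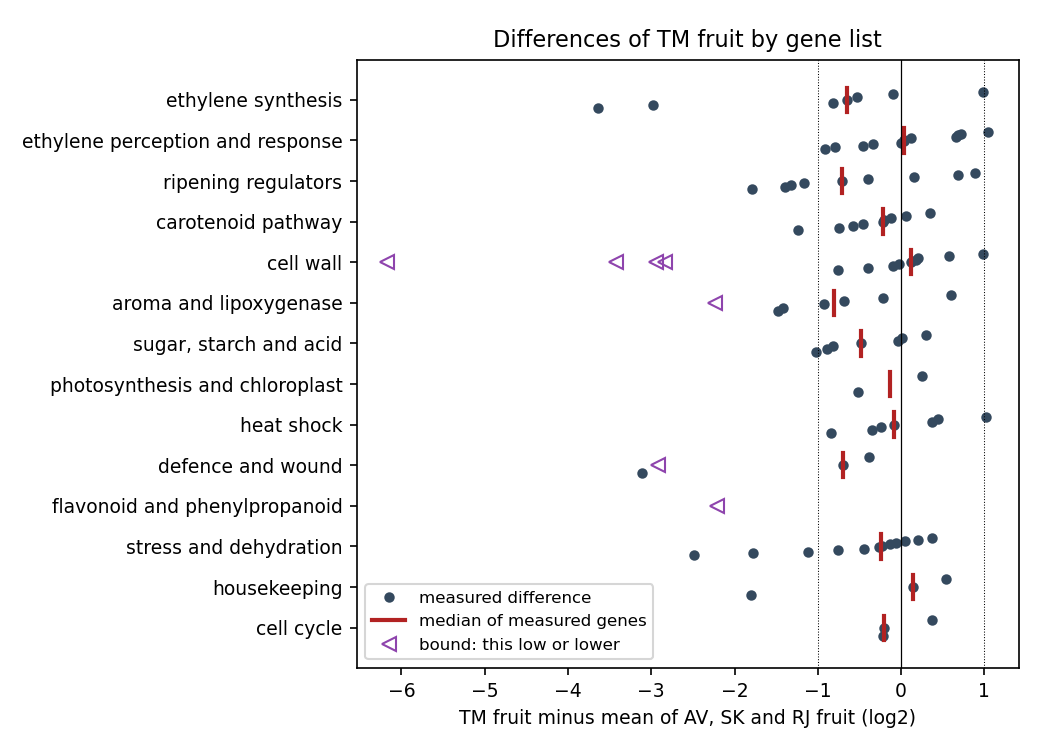
Differences of TM fruit from the mean of AV, SK and RJ fruit by gene list, with 1 point per gene seen on all 4 fruit arrays, a red bar at the list median and open triangles for genes not seen on TM fruit, placed at the bound. Dotted lines mark 2-fold. The largest bound, at -6.17 on this axis, is PG2 of the cell wall list, and the lowest measured point, at -3.64, is ACO1.

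Of 6 flavonoid and phenylpropanoid genes on the array, none was seen on all 4 fruit arrays. CHS2, a chalcone synthase at the entry to flavonoids, was at -4.81 in TM fruit, against -1.27 in AV, -1.15 in SK and -2.0 in RJ fruit, at least 4.64-fold lower. Both of its probes were seen on the other 3 fruit arrays and neither on TM fruit.

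Of 12 defence and wound genes, 3 were seen on all fruit arrays and all 3 lay below the range of the other fruits, with a median of -0.69 and 1 gene 2-fold lower, beside 37.9% of named genes below the range. RSI-1 had a level of -3.06 in TM fruit, against 1.47 in AV, 0.84 in SK and -2.15 in RJ fruit, so that RJ fruit stood close to TM fruit. Its difference of -3.11 became -2.40 without AV fruit and -4.21 without RJ fruit. CHI9, a chitinase, was at -4.55 in TM fruit, against -0.42 in AV, -1.63 in SK and -0.27 in RJ fruit, at least 7.56-fold lower, but it was bright in TM leaf at 0.79. PR-P2, a pathogenesis-related protein, was at -5.94 in TM fruit, against 1.61 in AV, 0.52 in SK and -2.11 in RJ fruit. On 1 of its 3 probes, PR-P2 was lower by at least 3.70 on the log2 scale, or by at least 2.90 without AV fruit. The difference of WRKY40 was -0.69 and that of the aminopeptidase gene LAPA2 was -0.38. WRKY41, a transcription factor, was at least 2.49-fold lower in TM fruit over 1 of 2 probes. RAB1B, a small GTPase, was at least 2.86-fold lower. Each of these 2 bounds stayed 2-fold under 11 of 12 processing alternatives.

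Further genes were low in TM fruit. AOX1a, the alternative oxidase of mitochondria, had a level of -1.96 in TM fruit, against 0.49 in AV, 0.68 in SK and 0.41 in RJ fruit. Its difference of -2.49, 5.60-fold lower, stood beside an SD of 0.14 over the other accessions. PGH1, an enolase, was at -2.78 in TM fruit, against -0.16 in AV, -0.55 in SK and -1.56 in RJ fruit, over 2 of 10 probes. GAPC2, a glyceraldehyde-3-phosphate dehydrogenase, was at -0.90 in TM fruit, against 1.29 in AV, 1.17 in SK and 0.23 in RJ fruit. The housekeeping genes thus did not move as one, since GAPDH differed by 0.54 and LOC544055, an elongation factor, by 0.14.

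Of 12 stress genes seen in fruit, 3 were 2-fold lower in TM fruit, none was higher, 5 lay below the range of the other fruits and none above it, with a median of -0.25, beside the 9.39% and 37.9% of named genes 2-fold lower and below the range. The polyamine genes SAMDC and adc1 were among the 3. SAMDC, an S-adenosylmethionine decarboxylase, was at -0.30 in TM fruit, against 0.58 in AV, 1.53 in SK and 0.36 in RJ fruit, and its difference of -1.12 became -0.76 without SK fruit. The arginine decarboxylase gene adc1 was at -3.29 in TM fruit, against 0.22 in AV, -2.11 in SK and -2.64 in RJ fruit, and its difference of -1.78 became -0.92 without AV fruit, while ADC, another arginine decarboxylase, differed by 0.37. ASR1, a ripening and water-stress protein, was bright in all fruits, at 4.73 in TM, against 5.20 in AV, 5.73 in SK and 5.52 in RJ fruit. The glutathione transferase gst differed by -0.45.

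Of 7 sugar and acid genes seen in fruit, 1 was 2-fold lower, beside 9.39% of named genes, and the list median was -0.48. This was the sucrose synthase sus3, at -2.35 in TM fruit, against -1.15 in AV, -1.20 in SK and -1.63 in RJ fruit. It stayed 2-fold lower under 7 of 17 processing alternatives. The fructokinase FRK3 differed by -0.88, the sucrose phosphate synthase SPS by -0.48 and SUV by -0.04. LOC544313, a glutamate decarboxylase, differed by 0.31. AI, the acid invertase that splits sucrose in ripe fruit, was at 0.08 in TM fruit, against 2.88 in AV, 0.52 in SK and -0.71 in RJ fruit. Its difference of -0.81 stood beside an SD of 1.82 over the other accessions and turned to 0.18 without AV fruit. Other lower genes outside the lists were CYP85A1, which acts in brassinosteroid synthesis, at -1.43, ail at -1.60, DAD1 at -1.52 and PIIGLB1 at -1.46.

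Named genes higher in TM fruit were fewer. The highest differences were those of AGO4A, SO, DDTFR8 and HSC80. AGO4A, an Argonaute protein of RNA-directed DNA methylation, had a level of 0.42 in TM fruit, against -2.63 in AV, -1.63 in SK and -0.28 in RJ fruit, over 1 of 3 probes. Its difference of 1.94 stood beside an SD of 1.18 over the other accessions. It became 1.38 without AV fruit and 2.56 without RJ fruit. SO was at 0.82 in TM fruit, against -1.81 in AV, -1.31 in SK and 0.08 in RJ fruit, over 4 probes at 1.69 to 1.92. DDTFR8 was at -0.11 in TM fruit, against -1.45 in AV, -0.84 in SK and -2.72 in RJ fruit. RJ fruit was nearest to TM fruit for AGO4A and SO, and furthest for DDTFR8.

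HSC80 and Hsp90-1, chaperones of the HSP90 family, were among the 15 highest named genes and are not a list of that family. HSC80 was at 2.05 in TM fruit, against 0.17 in AV, 0.13 in SK and 1.32 in RJ fruit, with its 14 probes at 1.33 to 1.62. Hsp90-1 was at 1.04 in TM fruit, against -0.54 in AV, -0.55 in SK and 0.35 in RJ fruit, over 8 probes at 0.69 to 1.49. The heat shock list, which holds other chaperones, had a median of -0.09 over 7 genes, with 1 gene, MTSHP, 2-fold higher and none 2-fold lower. Among named genes 4.33% were 2-fold higher and 9.39% were 2-fold lower. MTSHP stayed 2-fold higher under 12 of 17 processing alternatives. MTSHP, the mitochondrial small heat shock protein, was at -0.14 in TM fruit, against -1.49 in AV, -1.61 in SK and -0.38 in RJ fruit. HSP21, its chloroplast counterpart, was at -1.39 in TM fruit, against 0.00 in AV, -0.56 in SK and -1.07 in RJ fruit. The small proteins HSP17.8 and HSP17-6 differed by 0.44 and -0.35, Hsc70.1 by 0.38 and vis1 by -0.24.

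SAHH, which recycles S-adenosylhomocysteine after methyl transfer, was at 2.94 in TM fruit, against 2.23 in AV, 1.44 in SK and 1.89 in RJ fruit, over 10 probes at 0.93 to 1.21. The translation factor eIF-5A1 was at 2.71 in TM fruit, against 1.24 in AV, 1.5 in SK and 2.08 in RJ fruit. The aquaporin pip1 was at 0.41 in TM fruit, against -0.95 in AV, -1.66 in SK and -0.43 in RJ fruit. In leaf pip1 was at 0.40 in TM, against -1.65 in AV, -1.84 in SK and 0.55 in RJ, so that TM and RJ leaf were alike in being the brighter ones. PIP2-4, another aquaporin, differed by 0.91, the bHLH factor ICE1A by 1.29 and TH1 by 1.08.

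Some probes were seen on TM fruit and on no other fruit array. Of 6724 probes seen on TM fruit, 482 (7.17%) were of this kind, but 22 (0.327%) had a bound of at least 2-fold. For comparison, 466 probes were seen on AV fruit alone, 184 on SK fruit alone and 80 on RJ fruit alone. GolS-1, a galactinol synthase that feeds the raffinose sugars, was at -2.14 in TM fruit, against -5.41 in AV, -5.33 in SK and -3.19 in RJ fruit, at least 2.43-fold higher. It was at background in the leaves. The transcription factors TCP3 and ABF4 were at least 2.26-fold and 2.09-fold higher. TCP3 was at -2.36 in TM fruit, against -4.70 in AV, -5.60 in SK and -3.53 in RJ fruit, and its other probe was not seen in fruit. ABF4 rests on 1 of 6 probes, and the other 5 were not seen on any fruit array. XET2, AGAL, GRAS6, GAL83, ACA10, DREB1 and ArcA2 had bounds from 1.32-fold for ArcA2 to 1.81-fold for XET2.

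The named genes with differences nearest to 0 were level between TM fruit and the mean of the other fruits. The proton pump LHA2 differed by -0.01, the ribosomal protein RPL8 by 0.00, EOL1 by 0.00 and FKBP12 by 0.01. Larger differences were those of the cell cycle genes krp1, CycA3 and cdc2A-2, at 0.37, -0.21 and -0.22. Of the photosynthesis genes seen in fruit, PSBP differed by -0.51 and CAB6A by 0.25.

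Since 800 of the 5117 probes had a gene, most probes are unnamed. The unnamed probes with the highest differences, A_96_P041411 and A_96_P036586, were at 1.67 and 3.76 in TM fruit. A_96_P041411 was at -2.68 in AV, -1.35 in SK and -0.20 in RJ fruit, and A_96_P036586 at -2.03 in AV, 1.28 in SK and 2.99 in RJ fruit. Their differences were 3.09 and 3.01. The unnamed probes with the lowest differences, A_96_P013246 at -2.89 and A_96_P136737 at -2.81, read -2.38 and -2.19 in TM fruit, against 0.16 to 1.15 in the other fruits. At both lower probes RJ fruit was highest, whereas AV fruit was highest for ACO1 and PG2.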

How the data were processed

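Cy3-labelled cRNA from mature leaf and ripe fruit of each accession was hybridised to 1 Agilent one-colour array, per the labels. Per the file headers, Agilent Feature Extraction 10.7.3.1 gave the intensity of each spot in the deposited scanner files, with background subtraction and flags for outlier spots and signal well above background. A log2 table deposited by the authors served as an alternative; 247 further columns in it were not used. The build and annotation behind the array design are not given in the sources used here.

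Outlier spots were dropped and replicate spots averaged as log2 values. The 75th percentile over the 3085 probes seen on all 8 arrays was then subtracted per array. A probe counted as seen where at least 50% of its spots were flagged. The design labels 8503 ordinary probes as negative controls. On TM fruit the lowest flagged signal was -3.69, above the true negative control spots, which reached at most -5.48. Whether the labelled probes raised the level needed for the flag was not tested. Probes seen on all 4 fruit arrays were kept (5117). Of 3132 probes with a transcript accession, 2936 were named from RefSeq's SLM_r2.1 gene table, giving 1214 genes, 321 with a locus number alone. Probes of a gene were averaged. Of 161 genes with several kept probes, 23 had probes of both signs, but 0 of the 26 that were 2-fold apart did. No sequences were used.

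With 1 array per group there was no test: differences, counts past 2-fold and the place of TM fruit in the range of the other fruits are given. Members and gene lists were chosen with earlier results of these data known. Named are the 15 highest and 15 lowest named genes outside that range, the kept ethylene, ripening and carotenoid genes, up to 6 genes of each other list, the 10 largest bounds each way, the 5 genes nearest 0 and up to 2 unnamed probes each way. Alternatives changed scaling, background (normexp with offset 50, limma 3.58.1, R 4.3.3), filter, probe choice, arrays and fold. Routines were tested on simulated data (Python 3.11.15, pandas 2.3.3, numpy 2.4.6, matplotlib 3.10.9). The number of arrays limits the precision.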

Additional observations from a re-analysis of the deposited data

Results flagged for a closer look

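ACO1 went in opposite directions in the accessions: fruit minus leaf was -0.813 in TM, against 4.12 in AV and 1.45 in RJ. In SK fruit was also above leaf, but in SK leaf 1 of the 8 probes was seen and its value is not exact. DXS gave -0.632 in TM, against 0.410 to 1.08 in the other accessions. HPL gave -0.387 in TM, against 0.241 to 1.21 in the other accessions. For DXS and HPL at least 1 probe was well above background on each of the 4 leaf arrays. The difference between accessions was not tested, since each had 1 array per tissue.

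Of the 8503 ordinary probes that the array design labels as negative controls, and which were left out above, 731 were well above background on TM fruit, against 650 on AV, 630 on SK and 667 on RJ fruit. Of these, 504 were seen on all 4 fruit arrays, where 34 were at least 2-fold higher and 14 at least 2-fold lower in TM fruit. None matched a gene.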

How the results depend on the processing

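The 23 alternatives gave 1933 single-gene values, at most 18 per gene, since some changed the counts alone. Of these values, 1813 moved by less than the SD of the other fruits and 120 by more. That SD is a spread between accessions, 3.41 for Man4 and 1.82 for AI, so large shifts can pass as small. The 45 genes named in the text that were at least 2-fold apart, bounds included, kept their direction under every alternative run for them. Of these, 28 stayed 2-fold apart. The direction was partly fixed in advance. Measured named genes 2-fold apart all lay outside the range of the other fruits, so leaving out other fruits could not turn them. Genes with bounds were chosen as seen on 1 side only. Of 72 genes less than 2-fold apart, 23 changed sign under at least 1 alternative, the largest being AI at 0.813 in size. Against 253 higher and 346 lower probes, and 12 higher and 26 lower named genes, the counts were 135 and 593 probes and 7 and 43 genes with scaling to spike-ins. Lower probes were 226 with median scaling, 191 with normexp and 212 in the authors' deposited values. Without a filter there were 1147 and 1343 probes and 29 and 67 genes. With probes seen on all 8 arrays there were 150 and 211 probes and 6 and 16 genes, from fewer probes. TM minus AV fruit gave 482 and 744 probes and 25 and 53 genes. A fold of 1.5 gave 664 and 1018 probes and 31 and 63 genes, and a fold of 4 gave 22 and 33 probes and 0 and 5 genes. Leaving out 1 other fruit gave 184 to 364 higher and 244 to 520 lower probes, and 10 to 13 higher and 18 to 35 lower named genes; the 520 came without RJ fruit. Beyond the fewer probes, arrays and folds, the cause was not tested. No paired analysis was possible because each accession has 1 array per tissue. Signal over background limits the values: where TM fruit is at background, folds are lower bounds, and TM fruit was the dimmest fruit array before scaling. An alternative floor from the negative control spots, a median-centred version and one with the control-labelled probes were chosen after seeing the data; the first put the bound of PG2, as TM minus the others on the log2 scale, at -7.87.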
